A study of Homo sapiens with 32 samples.

Results

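A set of 10 enzymes is described here, chosen by name from an RNA-Seq table of neuroblastoma cells (SK-N-BE(2)) given CBD. They are PHGDH, PSAT1 and PSPH of serine synthesis, SHMT1, SHMT2, MTHFD2, MTHFD1L and ALDH1L2 of folate-bound one-carbon metabolism, ASNS of asparagine synthesis and PYCR1 of proline synthesis. All 10 were found among the 22610 gene entries of the table, and all 10 were among the 12621 entries with a mean FPKM of at least 1 that were tested. FPKM counts fragments relative to transcript length and to the mapped total of the sample, so levels of different genes can be set side by side per length.

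SK-N-BE(2) is an established human neuroblastoma cell line, and 1 line was used throughout, so the samples carry 1 genetic background. Cells received 20 μM CBD (cannabidiol, a non-intoxicating cannabinoid of hemp) in ethanol or 0.1% ethanol alone as vehicle, and polyA RNA was sequenced after 3, 6, 12 and 24 h, with 4 samples per treatment and time and 32 in all. Nothing in the labels says how the 4 samples of a group were kept apart beyond their preparation in quadruplicate, so the p-values measure the spread between these samples. All 9 adrenergic neuroblastoma markers were present, with MYCN at a mean of 1762 FPKM and PHOX2A at 404 FPKM, while the blood marker PTPRC lay at or near 0. Of the 6 mesenchymal markers, PRRX1, YAP1 and COL1A2 lay at or near 0, and SNAI2 (7.96), COL1A1 (1.502) and FN1 (0.822) had mean FPKM above it. FPKM do not keep the sequencing depth, which was estimated in relative terms from low values and ranged from 0.786 to 1.21 between samples. Its mean was lower with CBD at all 4 times, with differences from vehicle of -0.081, -0.068, -0.088 and -0.057 at 3, 6, 12 and 24 h. An exact two-sided permutation test of 4 samples against 4 gave p of 0.143, 0.171, 0.143 and 0.457 in this order.

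Serine is made from the glycolytic intermediate 3-phosphoglycerate in sequential steps catalysed by PHGDH, PSAT1 and PSPH. Serine hydroxymethyltransferases, SHMT1 in the cytosol and SHMT2 in mitochondria, then pass a carbon from serine to tetrahydrofolate and leave glycine. In mitochondria the carbon unit is oxidised by MTHFD2 and released as formate by MTHFD1L, and formate feeds purine and thymidylate synthesis in the cytosol, while ALDH1L2 oxidises the same unit to carbon dioxide and makes NADPH. ASNS makes asparagine from aspartate with glutamine as the nitrogen donor, and PYCR1 makes proline in mitochondria. Several of these genes are textbook targets of ATF4, the transcription factor of the amino acid and integrated stress responses, and neuroblastomas with MYCN amplification are known for strong serine and glycine synthesis.

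CBD raised 9 of the 10 genes at 1 or more times, by unequal amounts. ASNS rose at every time and reached a 1.83-fold ratio of group means at 24 h. MTHFD2 reached a ratio of 1.41 at 24 h, with MTHFD1L close to it, and PSAT1 had its largest ratio, 1.33, at 6 h. PHGDH, SHMT2, ALDH1L2 and PYCR1 rose by smaller amounts from 6 h on, and PSPH was higher at 6 h and 24 h. SHMT1, the cytosolic counterpart of SHMT2, passed the test at no time. No member passed the test in the lower direction at any time.

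Calls were made with limma on log2(FPKM + 1), with Benjamini-Hochberg adjustment over the 12621 genes and a threshold of 0.01, and every log2 change below is on that scale. At 3 h, 3 of 10 members were called higher with CBD (ASNS, PSAT1 and MTHFD2) and 0 lower, where 1.18% of all genes tested were called higher and 1.28% lower. At 6 h the count was 9 higher and 0 lower, beside 4.07% and 6.13% of all genes. By 12 h it was 8 higher and 0 lower, beside 8.85% and 11.2%. After 24 h it was 9 higher and 0 lower, beside 20.8% and 21.3%. The median log2 change of the 10 genes was 0.13, 0.20, 0.26 and 0.28 at 3, 6, 12 and 24 h, while the median over all genes tested was 0.0066, -0.0048, -0.0043 and -0.0032. All 4 CBD values lay above all 4 vehicle values in 6, 9, 8 and 9 members at the 4 times in order, an arrangement held by 5.52%, 8.46%, 13.4% and 25.1% of all genes. In an F-test over the 4 CBD effects, 9 of 10 members passed, against 47.2% of all genes, and SHMT1 had an adjusted p of 0.0291. The members and these comparisons were chosen with earlier results in view, so the counts describe the genes and carry no test of the list. RNA from whole cultures was measured, in which fewer cells of a kind and less RNA per cell cannot be told apart.

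**Figure D1:**
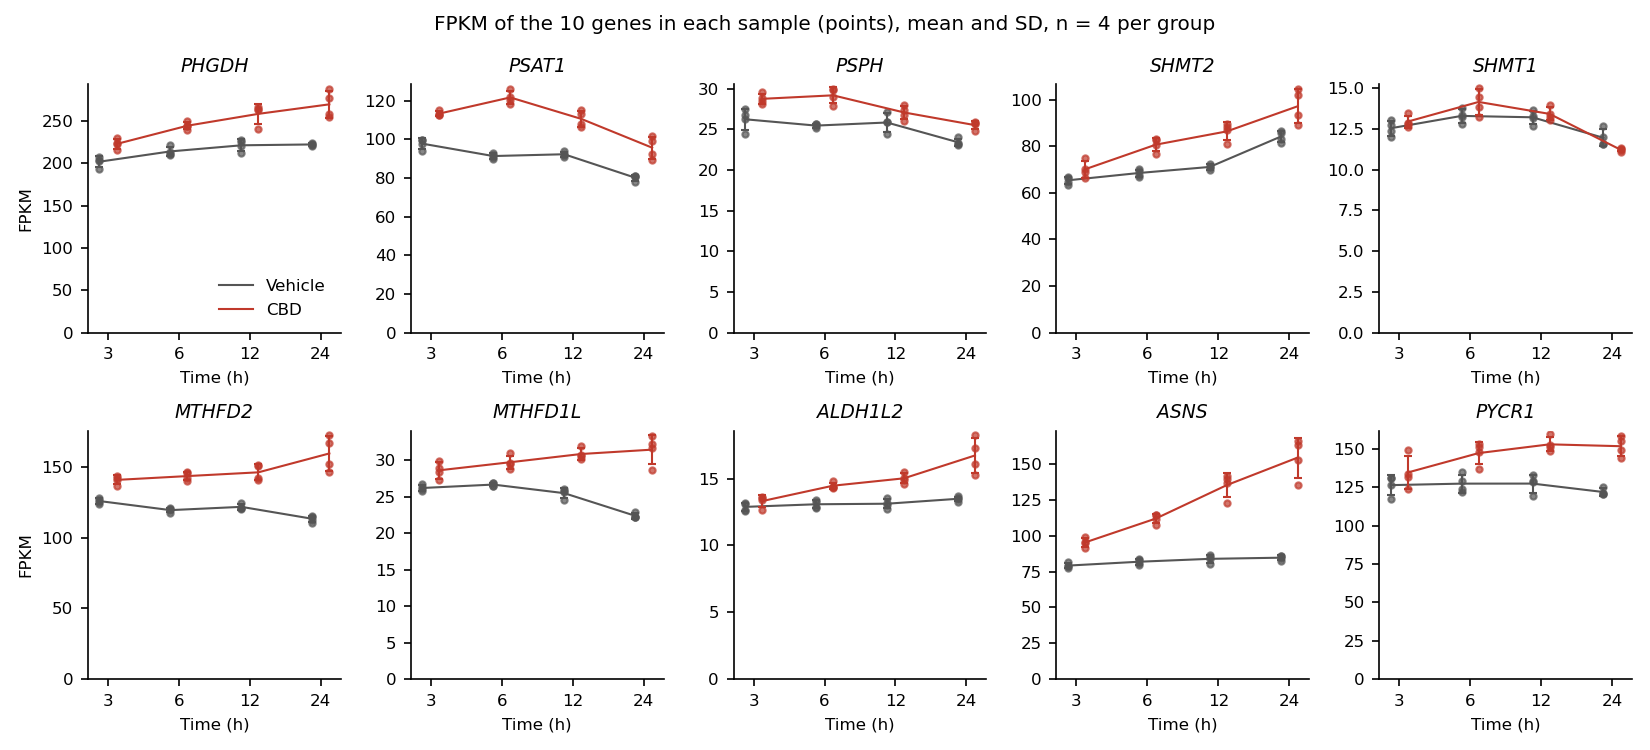
FPKM (linear axis from 0) of each of the 10 genes against time in h, 1 panel per gene, with a point for each sample, the mean joined by a line and the SD as a bar (4 samples per group, CBD in red, vehicle in grey). The ASNS arms move apart from 95.4 against 79.2 FPKM at 3 h to 155 against 84.8 FPKM at 24 h, while those of SHMT1 stay within 11.1 to 15.0 FPKM.

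ASNS (chr7:97480989-97501854 on GRCh37, minus strand), which makes asparagine, had the largest change of the 10 at 3, 6, 12 and 24 h. At 3 h the CBD samples read 91.7, 99.2, 95.6 and 94.9 FPKM and the vehicle samples 81.8, 78.7, 77.7 and 78.8 FPKM. At 24 h they read 166, 153, 164 and 136 FPKM with CBD and 82.6, 84.8, 86.0 and 85.6 FPKM with vehicle. The groups did not overlap at either time, and the lowest CBD sample at 24 h was replicate 4. Group means with CBD were 95.4 ± 3.08, 112 ± 3.30, 135 ± 8.38 and 155 ± 14.0 FPKM at 3, 6, 12 and 24 h (SD, n = 4), whereas the vehicle means stayed between 79.2 and 84.8 FPKM. The log2 change was 0.26 at 3 h (SE 0.046, adjusted p = 0.000668), 0.45 at 6 h (adjusted p = 5.64e-08), 0.68 at 12 h (adjusted p = 8.42e-12) and 0.86 at 24 h (adjusted p = 2.26e-14). The effect was larger at 24 h than at 3 h by 0.59 (adjusted p = 6.28e-08). None of the single steps between neighbouring times passed the threshold, with 0.23 from 6 to 12 h (adjusted p = 0.0294) and 0.17 from 12 to 24 h (adjusted p = 0.0682).

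The ASNS promoter is shown because it is a textbook site of amino acid regulation and because ASNS changed most. Windows from 250 bases before to 50 bases after annotated start sites were taken from RefSeq (GRCh38.p14), in which 6 of the 10 genes have at least 1 window and PSPH, SHMT2, ALDH1L2 and PYCR1 have none. The letters TGATGNAA, the core of the C/EBP-ATF response element, were searched on both strands and lay in 1270 of 35116 windows (3.62%). Of the 10 member windows 4 held them, from 2 members, ASNS and MTHFD1L. The MTHFD1L windows among these overlap and share 1 site, and ASNS has a further window without a match. The E-box CACGTG lay in 2548 windows (7.26%) and in 3 of the 10 member windows. These are the same overlapping MTHFD1L windows, which share 1 E-box that does not overlap the TGATGNAA match. The ASNS run spans the 120 bases before 1 annotated start site (chr7:97872409-97872528, GRCh38.p14, minus strand) and has TGATGAAA 68 bases before that start. The MTHFD1L run is 30 bases (chr6:150866346-150866375, GRCh38.p14, plus strand) with TGATGCAA, 129 bases before 1 of its annotated starts. Capitals mark the match in each, which describes letters and not binding.
ASNS: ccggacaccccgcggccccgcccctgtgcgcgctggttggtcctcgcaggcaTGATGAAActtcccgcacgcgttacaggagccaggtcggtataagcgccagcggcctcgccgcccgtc
MTHFD1L: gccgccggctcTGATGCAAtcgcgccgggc

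PHGDH (chr1:120191034-120286841, plus strand), the first enzyme of serine synthesis, was the most abundant of the 10 with a mean of 232 FPKM over the 32 samples. At 24 h the CBD samples read 277, 258, 288 and 255 FPKM and the vehicle samples 222, 224, 221 and 222 FPKM. All CBD values lay above all vehicle values, as they did at 3, 6 and 12 h. Its log2 change was 0.14 at 3 h (SE 0.034, adjusted p = 0.0115, not past the threshold), 0.19 at 6 h (adjusted p = 0.000213), 0.22 at 12 h (adjusted p = 1.38e-05) and 0.28 at 24 h (adjusted p = 1.62e-07).

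PSAT1 (chr9:80912041-80945009, plus strand), the aminotransferase of the second step, followed another course. Its CBD samples read 113, 113, 112 and 115 FPKM at 3 h and 121, 126, 122 and 119 FPKM at 6 h. Vehicle samples read 99.9, 99.9, 97.7 and 93.8 FPKM at 3 h and 92.1, 92.8, 90.9 and 89.8 FPKM at 6 h. By 24 h both arms were lower, with 102, 92.5, 99.0 and 89.6 FPKM with CBD against 77.9, 81.3, 80.4 and 81.3 FPKM with vehicle. The groups were apart at all 4 times, and in each arm the level at 24 h was below that at 3 h. The change on the log2 scale was 0.21 at 3 h (SE 0.031, adjusted p = 7.51e-05), 0.41 at 6 h (adjusted p = 1.52e-10), 0.26 at 12 h (adjusted p = 3.08e-07) and 0.25 at 24 h (adjusted p = 1.39e-07). Its effect rose by 0.20 from 3 to 6 h (adjusted p = 0.00643), the only member step past the threshold there, where 2.1% of all genes passed in either direction. The later decrease of 0.15 from 6 to 12 h did not pass (adjusted p = 0.0348), nor did any other member in that step, in which 2.33% of all genes passed.

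PSPH (chr7:56078744-56119297, minus strand), the phosphatase that releases serine, had the smallest log2 change of the serine enzymes at each time. At 6 h the CBD samples read 29.9, 30.0, 29.0 and 27.9 FPKM and the vehicle samples 25.7, 25.6, 25.1 and 25.5 FPKM. At 12 h the ranges overlapped, with 26.1 to 28.1 FPKM against 24.4 to 27.2 FPKM. On the log2 scale the change was 0.13 at 3 h (adjusted p = 0.011), 0.19 at 6 h (SE 0.031, adjusted p = 6.62e-05), 0.066 at 12 h (adjusted p = 0.112) and 0.12 at 24 h (adjusted p = 0.0019). The largest estimate of the serine chain came at 6 h for PSAT1 and PSPH and at 24 h for PHGDH. Effects were compared between neighbouring times and between 3 and 24 h, and for these genes only that of PSAT1 from 3 to 6 h passed. The difference between the 6 h and 24 h effects was not tested. As a description of the levels, the PSPH to PHGDH ratio at 24 h was 0.0949 ± 0.00442 with CBD and 0.105 ± 0.00145 with vehicle, and the PSAT1 to PHGDH ratio was 0.355 ± 0.0107 and 0.361 ± 0.00677 (SD, n = 4). Of the 50-base words in PSPH transcripts, 6.17% also occur in genes elsewhere, with the pseudogene PSPHP1 sharing more of them than any other gene, and the corresponding share for PSAT1 was 4.58%, with PSAT1P3 holding the most. Reads may map to either copy, so the values of both genes may hold reads of these copies. For the other 8 members the share was at most 2.9%, and other annotated genes that overlap a member at its own locus, as for ASNS and PYCR1, were not counted in it.

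**Figure D2:**
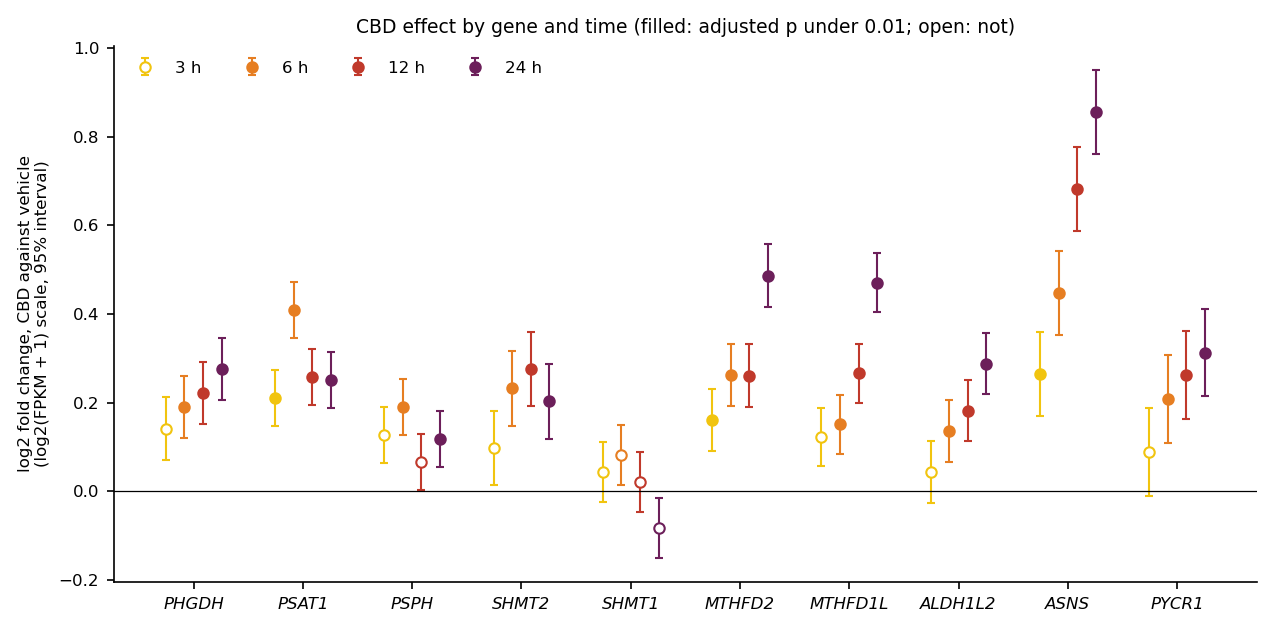
Log2 change with CBD against time-matched vehicle (vertical axis, log2(FPKM + 1) scale) for each gene at 3, 6, 12 and 24 h, with bars for the 95% interval of the limma fit. Filled points passed an adjusted p of 0.01 and open points did not. ASNS climbs from 0.26 to 0.86, PSAT1 is highest at 6 h with 0.41, and SHMT1 is open at all 4 times.

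SHMT2 (chr12:57623356-57628718, plus strand), the mitochondrial hydroxymethyltransferase, rose from 6 h on. At 12 h the CBD samples read 87.0, 88.3, 89.6 and 80.8 FPKM and the vehicle samples 71.3, 69.8, 72.5 and 71.0 FPKM. At 24 h they read 102, 93.5, 105 and 89.0 FPKM with CBD and 86.5, 81.4, 85.7 and 83.0 FPKM with vehicle. The groups were apart at both times, by less at 24 h. The log2 change was 0.098 at 3 h (SE 0.041, adjusted p = 0.147), 0.23 at 6 h (adjusted p = 0.000185), 0.28 at 12 h (adjusted p = 8.83e-06) and 0.20 at 24 h (adjusted p = 0.00016). Fitting the 24 h samples by themselves gave an adjusted p of 0.0132, which ended the call.

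SHMT1 (chr17:18231174-18266877, minus strand), which runs the same reaction in the cytosol, was the least abundant member, with a mean of 12.8 FPKM. At 6 h the CBD samples read 15.0, 13.9, 14.5 and 13.2 FPKM and the vehicle samples 13.4, 13.8, 12.8 and 13.2 FPKM. At 24 h they read 11.2, 11.1, 11.3 and 11.2 FPKM with CBD and 11.6, 12.0, 11.6 and 12.7 FPKM with vehicle. The 6 h groups overlapped, and the 24 h CBD values all lay below the vehicle values, as did those of 25.9% of all genes. Against vehicle the log2 change was 0.083 at 6 h (95% interval 0.015 to 0.15, adjusted p = 0.0771) and -0.083 at 24 h (95% interval -0.15 to -0.015, adjusted p = 0.0367), neither past the threshold. At 3 h it was 0.043 (adjusted p = 0.461) and at 12 h 0.021 (adjusted p = 0.685). The SHMT2 to SHMT1 ratio of FPKM was 5.42 ± 0.187 with CBD and 5.22 ± 0.0993 with vehicle at 3 h, and 8.66 ± 0.603 and 7.06 ± 0.453 at 24 h (SD, n = 4). The ratio was thus larger at 24 h than at 3 h in both arms, and at 24 h its lowest CBD value, 7.91, lay above the highest vehicle value, 7.49. The same held at 6 h (5.525 against 5.298) and at 12 h (6.19 against 5.59), while the arms overlapped at 3 h.

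MTHFD2 (chr2:74413299-74444692, plus strand), the mitochondrial methylenetetrahydrofolate dehydrogenase, rose at all 4 times. At 3 h the CBD samples read 137, 144, 141 and 143 FPKM and the vehicle samples 128, 127, 125 and 124 FPKM. At 24 h they read 173, 152, 167 and 147 FPKM with CBD and 111, 113, 115 and 115 FPKM with vehicle. The gap at 24 h came from both arms, with CBD samples higher and vehicle samples lower than at 3 h. CBD changed it by a log2 value of 0.16 at 3 h (SE 0.034, adjusted p = 0.00461), 0.26 at 6 h (adjusted p = 3.17e-06), 0.26 at 12 h (adjusted p = 1.43e-06) and 0.49 at 24 h (adjusted p = 5.62e-12). Its 3 h call did not survive the removal of any of 6 single samples, namely replicates 2, 3 or 4 of either treatment, with adjusted p from 0.0119 to 0.0211.

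MTHFD1L (chr6:151186815-151423023, plus strand), the mitochondrial formate-releasing synthetase, behaved much like MTHFD2 at a lower level. At 3 h the CBD samples read 27.2, 29.9, 28.9 and 28.3 FPKM and the vehicle samples 26.7, 25.8, 26.3 and 26.0 FPKM. At 24 h they read 32.2, 31.6, 33.3 and 28.6 FPKM with CBD and 22.2, 22.2, 22.2 and 23.0 FPKM with vehicle. The groups were apart at each of the 4 times. The log2 change was 0.12 at 3 h (SE 0.032, adjusted p = 0.0197), 0.15 at 6 h (adjusted p = 0.00136), 0.27 at 12 h (adjusted p = 3.95e-07) and 0.47 at 24 h (adjusted p = 3.14e-12). From 12 to 24 h the effect rose by 0.20 for MTHFD1L (adjusted p = 0.00254) and by 0.23 for MTHFD2 (adjusted p = 0.00185), and no other member passed in that step, in which 8.15% of all genes did.

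ALDH1L2 (chr12:105413562-105501421, minus strand), the mitochondrial formyltetrahydrofolate dehydrogenase, was low in level and rose gradually. At 24 h the CBD samples read 18.3, 16.1, 17.3 and 15.3 FPKM and the vehicle samples 13.5, 13.5, 13.7 and 13.3 FPKM. The 3 h ranges overlapped, with 12.7 to 13.6 FPKM against 12.5 to 13.2 FPKM. Relative to vehicle, the log2 change was 0.044 at 3 h (adjusted p = 0.463), 0.14 at 6 h (SE 0.034, adjusted p = 0.00515), 0.18 at 12 h (adjusted p = 0.000147) and 0.29 at 24 h (adjusted p = 6.42e-08). The 6 h call was lost on leaving out any of 6 samples, CBD replicates 2, 3 or 4 or vehicle replicates 1, 2 or 4, with adjusted p from 0.0106 to 0.0178.

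PYCR1 (chr17:79890260-79900288, minus strand), the mitochondrial pyrroline-5-carboxylate reductase, was the second most abundant member. At 3 h its CBD samples ran from 124 to 149.6 FPKM and its vehicle samples from 117 to 131 FPKM, which overlapped. At 24 h they read 155, 149, 158 and 144 FPKM with CBD and 120.4, 125, 121 and 121 FPKM with vehicle. The log2 difference was 0.088 at 3 h (SE 0.048, adjusted p = 0.278), 0.21 at 6 h (adjusted p = 0.00296), 0.26 at 12 h (adjusted p = 0.000132) and 0.31 at 24 h (adjusted p = 4.63e-06). The 6 h call was lost on leaving out CBD replicate 2 or 3 or vehicle replicate 3 or 4 (adjusted p from 0.0129 to 0.0154), and when 6 h was fitted alone (adjusted p = 0.0267).

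Set in order of mean FPKM over the 32 samples, the genes were PHGDH (232), PYCR1 (136), MTHFD2 (134), ASNS (103), PSAT1 (100.4), SHMT2 (78.0), MTHFD1L (27.7), PSPH (26.4), ALDH1L2 (14.0) and SHMT1 (12.8). The ranges over samples left 3 clear gaps in this order, after PHGDH, after SHMT2 and after PSPH. Neighbours elsewhere in the order had overlapping ranges. PHGDH stood at the 97.8th percentile of the genes tested and SHMT1 at the 56.1st. Summed over the 10 genes, FPKM ranged from 770.4 to 782 in the vehicle samples at 24 h and from 939.9 to 1069 in the CBD samples, a sum to which PHGDH, PYCR1, MTHFD2 and ASNS contribute most.

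The question of whether the CBD effect grew with time was tested as the difference between the 24 h and the 3 h effect. It was larger at 24 h for 4 of 10 members, ASNS (0.59), MTHFD1L (0.35, adjusted p = 9.76e-07), MTHFD2 (0.33, adjusted p = 6.5e-06) and ALDH1L2 (0.24, adjusted p = 0.000197), and smaller for 0, where 12.9% and 14.3% of all genes were called. PYCR1 (0.22, adjusted p = 0.0102) and PHGDH (0.13, adjusted p = 0.0288) did not pass. For PSAT1 the difference was 0.039 (95% interval -0.050 to 0.13, adjusted p = 0.507), for PSPH -0.0090 (95% interval -0.098 to 0.080, adjusted p = 0.895) and for SHMT2 0.11 (95% interval -0.014 to 0.22, adjusted p = 0.157). SHMT1 had -0.13 (adjusted p = 0.0336).

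Part of the time course took place without CBD. From 3 to 24 h the vehicle arm rose in SHMT2 by 0.36 (adjusted p = 2.02e-08) and in PHGDH by 0.14 (adjusted p = 0.000853), which is 2 of 10 members where 26.6% of all genes rose. It was lower in 4 members, where 31.1% of all genes were: PSAT1 at -0.28 (adjusted p = 8.18e-09), MTHFD1L at -0.22 (adjusted p = 1.37e-06), PSPH at -0.16 (adjusted p = 6.77e-05) and MTHFD2 at -0.15 (adjusted p = 0.000396). In the CBD arm 7 members rose between these times, beside 32.1% of all genes, led by ASNS at 0.69, SHMT2 at 0.46 and ALDH1L2 at 0.31. The CBD arm was lower in 3 members, beside 35.7% of all genes, with PSAT1 at -0.24, SHMT1 at -0.19 and PSPH at -0.17. MTHFD2 and MTHFD1L were called in opposite directions in the arms, rising with CBD by 0.18 and 0.13. PSAT1 and PSPH declined in both arms, and their CBD values stayed above all vehicle values at 24 h.

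**Figure D3:**
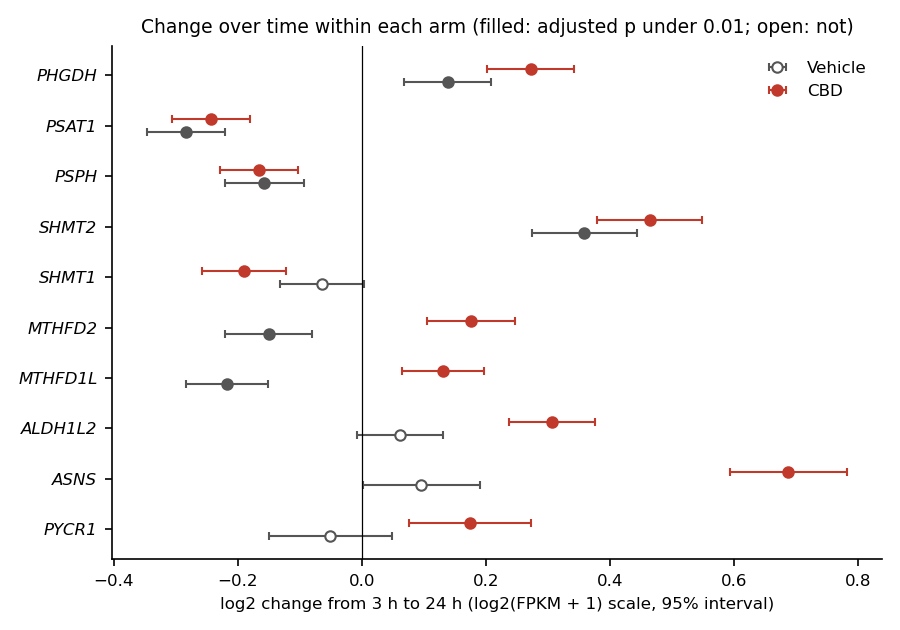
Log2 change from 3 h to 24 h (horizontal axis, log2(FPKM + 1) scale) within the vehicle arm (grey) and within the CBD arm (red) for each gene, with 95% intervals of the limma fit and filled points for an adjusted p under 0.01. MTHFD2 and MTHFD1L lie left of 0 in vehicle and right of 0 in CBD, and PSAT1 and PSPH lie left of 0 in both.

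Samples within a group were not alike across these genes. The CBD sample numbered 4 was the lowest of its group for 9 of the 10 members at 12 h and again at 24 h. The median log2 deviation from the group mean was -0.052 and -0.11 for the members, and -0.0043 and -0.0105 over all genes tested. The vehicle sample numbered 4 was the lowest of its group for 7 members at 3 h and 12 h but for 1 at 24 h. Samples that share a number across treatments or times are different samples. At 24 h, CBD replicates 1 and 3 were each highest for 5 members. Without CBD replicate 4 at 24 h, 9 members were still called higher, with a median log2 change of 0.32 in place of 0.28, and ASNS stood at 0.92. Over all genes 4879 were then called in either direction, against 5314 with all samples.

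Enzymes and carriers next to the 10 genes were taken from 8 lists holding 51 genes, of which 46 were tested. Of these 46, 1, 4, 6 and 12 were called higher with CBD at 3, 6, 12 and 24 h, and 1, 0, 9 and 13 lower. Over all genes tested, 1.18%, 4.07%, 8.85% and 20.8% were called higher and 1.28%, 6.13%, 11.2% and 21.3% lower, so at 24 h the neighbours lay near the share of all genes in both directions. Their median log2 change at 24 h was -0.014, beside 0.28 for the 10 enzymes and -0.0032 for all genes. GLDC, the glycine-cleaving decarboxylase, was not tested, since its mean over the 32 samples did not reach 1 FPKM. Its 24 h means were 0.118 FPKM (CBD) and 0.115 FPKM (vehicle).

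Among the neighbours called at 24 h, rises were seen in GOT1 (0.40, adjusted p = 5.19e-10), which makes aspartate in the cytosol, and CTH (0.31, adjusted p = 1.9e-05), which makes cysteine from cystathionine. FPGS, which adds glutamate tails to folates, rose by 0.25 (adjusted p = 0.000122). Falls were seen in SFXN2 (-0.40, adjusted p = 1.71e-08) and SFXN3 (-0.36, adjusted p = 3.3e-08) of the mitochondrial serine carrier family, and PFAS (-0.36, adjusted p = 1.28e-08) of purine synthesis. In the folate list 4 of 10 genes tested rose and 3 fell, and in the purine list 3 of 8 rose and 3 fell. In the mitochondrial serine transport list 2 of 3 fell and 0 rose. These counts stand beside 20.8% of all genes called higher and 21.3% lower.

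Close counterparts of the members moved differently. MTHFD1, the cytosolic trifunctional folate enzyme, had log2 changes of 0.023, -0.083, -0.049 and -0.016 at 3, 6, 12 and 24 h and passed at none of them. ALDH18A1, the enzyme upstream of PYCR1, also passed at no time, and its 24 h means were 56.2 ± 1.45 FPKM (CBD) and 55.7 ± 1.34 FPKM (vehicle). PYCRL, the cytosolic paralogue of PYCR1, was higher at 6 h by 0.24 (adjusted p = 0.00871) and lower at 24 h, at -0.25 (adjusted p = 0.00176).

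**Figure D4:**
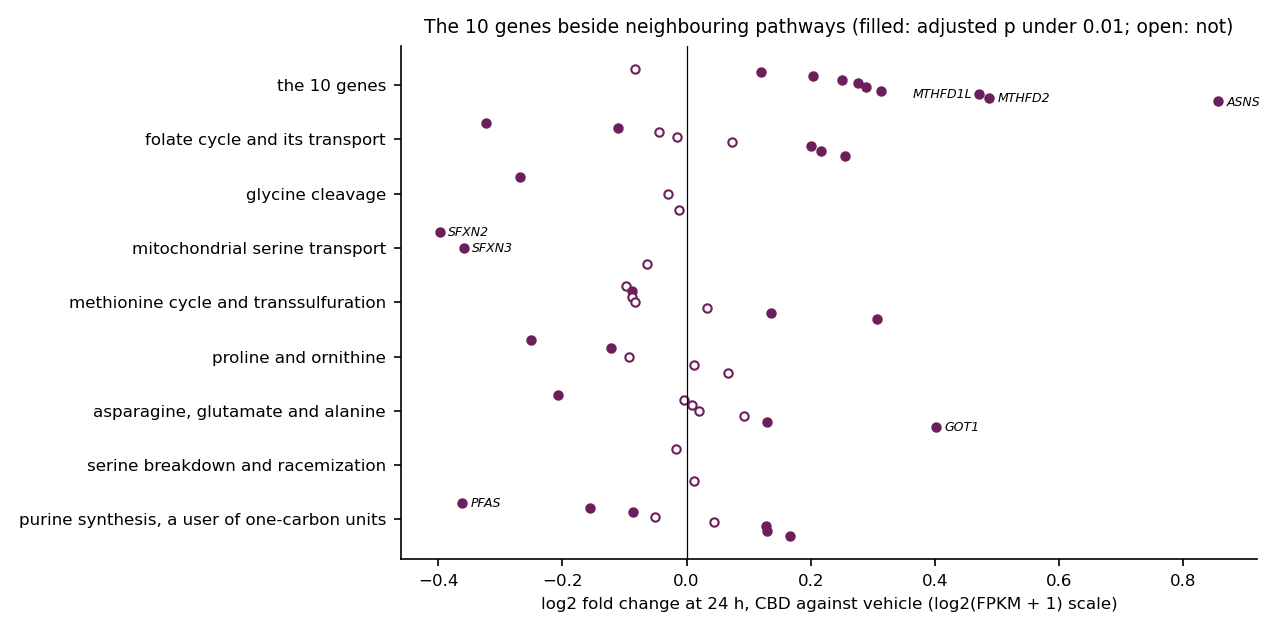
Log2 change at 24 h with CBD against vehicle (horizontal axis, log2(FPKM + 1) scale) for the 10 genes and for 43 of the 46 tested genes of 8 neighbouring lists (1 row each, 3 genes not drawn), 1 point per gene, filled where the adjusted p was under 0.01. Of the 10 genes, 9 are filled and right of 0, while the neighbours drawn fall on both sides, with SFXN2 at -0.40 and GOT1 at 0.40.

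ATF4 itself was higher with CBD at each time, with log2 changes of 0.24, 0.38, 0.35 and 0.41 at 3, 6, 12 and 24 h (SE 0.037, adjusted p = 0.000182, 2.21e-08, 3.46e-08 and 7.1e-10). As a description over the 32 samples, which share treatment and time, the non-member genes most like ASNS by Pearson r were AARS (0.976), HMOX1 (0.973), FTH1 (0.963), SARS (0.957) and MYCN (0.955). Those most like PHGDH were AARS (0.967), PCK2 (0.953), ULBP1 (0.948), MAFF (0.936) and IGHMBP2 (0.934). Among the members, PHGDH (0.944) and ALDH1L2 (0.930) ran closest to ASNS, while PSAT1 (0.428), PSPH (0.270) and SHMT1 (-0.195) did not follow it.

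Cell identity markers also moved with CBD at 24 h. DBH stood at -1.50 (adjusted p = 7.89e-17) and CHGA at -0.93 (adjusted p = 2.85e-12), while MYCN rose by 0.54 (adjusted p = 1.82e-12). The summed level of the 9 adrenergic markers was 3735 to 3917 FPKM with CBD and 3480 to 3551 FPKM with vehicle. MYCN, at a mean of 1762 FPKM over the 32 samples, is the largest part of this sum. The means of CHGA (506 FPKM) and DBH (7.17 FPKM) were lower, so the sum does not describe each of the 9 markers. The 6 mesenchymal markers summed to 10.4 to 11.4 FPKM with CBD and 8.03 to 8.77 FPKM with vehicle, most of it SNAI2, which rose by 0.43 (adjusted p = 4.49e-09). The epithelial pair summed to 3.94 to 4.61 FPKM and 3.08 to 3.49 FPKM, carried by EPCAM with KRT5 at or near 0. Their part in the rise of the 10 genes was not tested.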

How the data were processed

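Cells were treated and sequenced (polyA RNA, 50-base single reads) as given at the start. The authors trimmed reads with Trimmomatic version 0.36, mapped them against hg19 (TopHat) and obtained FPKM per gene and sample from Cufflinks, and these deposited FPKM were used as they stand. The library kit is named differently in the labels and in the methods. A second deposited table holds the authors' own Cuffdiff comparisons (fold changes and q-values), and it was not used. FPKM keep no read totals, so the depth behind each value is unknown, and relative depth was estimated from the steps of low values in 1414 genes. No 2 samples held identical values.

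Groups came from the labels. Genes whose mean FPKM reached 1 or more were tested on log2(FPKM + 1) in 1 fit of 8 group means, using R version 4.3.3 and limma version 3.58.1 (eBayes with trend), with Benjamini-Hochberg adjustment within each comparison and a threshold of 0.01. A fold change on this scale understates the change of low genes. Permutation tests used scipy version 1.17.1 under Python version 3.11.15. All 10 members are named. Of the 8 neighbouring lists, the 4 genes that rose most and the 4 that fell most among those called at 24 h are named, as are MTHFD1, GLDC, ALDH18A1, PYCRL and ATF4 whatever they did, and the 5 genes most correlated with ASNS and with PHGDH; some genes this rule names are not reported here. The members and lists were chosen with earlier results of these data known. Gene positions are from GENCODE on GRCh37 and promoter sequences from RefSeq on GRCh38.p14, which were not converted into each other. Alternatives were another added value (0.1 or 5), another filter (none, or a mean of 5 or more), quantile normalization, median-ratio scaling, a replicate block, relative depth as a term, eBayes without trend, each time point alone, and each sample left out in turn.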

Additional observations from a re-analysis of the deposited data

Results flagged for a closer look

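Within groups of 4 samples, 3 of 80 sets of member values held a sample far from the other 3, and chance alone flags about 1 in 20 such groups. PHGDH was lowest in CBD replicate 4 at 12 h with 240.7 FPKM, where the others read 263 to 266 FPKM. MTHFD1L was highest in vehicle replicate 4 at 24 h with 22.95 FPKM, and PYCR1 was highest in vehicle replicate 2 at 24 h with 125.4 FPKM.

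The CBD effect differed between 24 h and 3 h by the interaction test for ASNS (0.59 on the log2 scale, adjusted p = 6.28e-08), MTHFD1L (0.35, adjusted p = 9.76e-07), MTHFD2 (0.33, adjusted p = 6.5e-06) and ALDH1L2 (0.24, adjusted p = 0.000197).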

How the results depend on the processing

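Of 490 values recomputed under the alternatives for the processing, 471 kept their direction and their side of the threshold, and of 480 values recomputed with 1 sample left out, 453 did. The 3 h comparison was the least stable. Over all genes, 310 were called there, against 186 with relative depth as a term and 29 with 3 h fitted alone, in which fewer samples estimate the spread. Leaving out 1 sample gave 164 to 493 calls at 3 h, the latter without CBD replicate 1. At 6 h, 1288 genes were called and 425 with 6 h fitted alone. Members called higher at 3 h numbered 3, against 6 with median-ratio scaling (PHGDH, PSPH and MTHFD1L added) and 1, ASNS, with 3 h alone. Beside these, the genes called higher over the whole table numbered 149, 168 and 24 in the same order. Over all genes at 24 h, 2623 were higher and 2691 lower, against 2220 and 3241 with median-ratio scaling, where the count of members higher was again 9. MTHFD2 at 3 h had an adjusted p of 0.0367 after quantile normalization. The difference of the PSPH effect between 24 h and 3 h turned from -0.0090 to 0.021 after quantile normalization, and ranged from -0.031 to 0.023 with 1 sample left out, above 0 for 4 of the 16 samples (adjusted p from 0.694 to 0.964). The causes were not tested.

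Same-numbered CBD and vehicle samples did not deviate together (r from -0.076 to 0.094 over 16 pairs, none above 0.1), so the numbers were not taken to pair the samples. With a replicate block, 341, 1272, 2463 and 5298 genes were called at 3, 6, 12 and 24 h, and 4, 9, 8 and 9 members were higher. MTHFD2 at 3 h then had an adjusted p of 0.0231, and PHGDH (0.00445) and PSPH (0.00724) passed. The effect was called larger at 24 h than at 3 h for 6 members with the block and for 4 without it. PHGDH (adjusted p = 0.00782) and PYCR1 (adjusted p = 0.00142) were those added. Without the block 12.9% of all genes were called larger at 24 h, and the share with the block is not reported here, so the 2 counts are not compared. Depth is unknown, so no counting interval can be given for any value.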
